A study of Homo sapiens with 2 samples.

Results

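The YB-1 PAR-CLIP clusters on the mRNAs of molecular chaperones and of the proteasome were examined gene by gene. The set held 130 of the 20046 protein-coding genes of GENCODE release 44, chosen by symbol: HSP70 proteins (HSPA), HSP90 proteins, small heat shock proteins (HSPB), HSPD1, HSPE1 and HSPH1, J-domain proteins (DNAJ), the subunits of the chaperonin TRiC (CCT2 to CCT8 and TCP1), and the subunits and activators of the proteasome (PSMA, PSMB, PSMC, PSMD and PSME). A cluster was assigned to a gene when it shared at least 1 base with the gene's span on the same strand. The genes held 18 of the 1382 clusters listed for Rep.A, 23 of the 2011 listed for Rep.B, and 17 of the 1112 regions that were covered by overlapping clusters of both replicates (reproducible regions).

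The data came from a single condition, wild-type HEK293T cells (a line derived from human embryonic kidney), sampled as 2 replicates named Rep.A and Rep.B. There was no control library and no treated arm, so no condition was compared. The cells were given 100 µM 4-thiouridine for 16 h and irradiated at 365 nm with 0.15 J/cm2, which crosslinks the modified base to bound protein and makes it read as C in place of T. RNA that came down with an antibody against the C-terminus of YB-1 had been trimmed with RNase T1, an enzyme that cuts after G. Each deposited cluster has a mean coverage in reads per base, not scaled for library depth, and a number of T positions with T-to-C transitions.

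YB-1 is a cold shock domain protein that packages mRNAs in the cytoplasm and prefers short pyrimidine-rich motifs such as CATC and CACC in DNA letters. Chaperones fold new and damaged proteins: HSP70 proteins bind short hydrophobic stretches with the help of J-domain proteins, HSP90 proteins mature kinases and receptors, and TRiC encloses actin, tubulin and other clients in a chamber. Proteins that are marked with ubiquitin are degraded by the proteasome, in which a regulatory particle (PSMC and PSMD subunits) unfolds the substrate and a barrel of alpha and beta rings (PSMA and PSMB subunits) cuts it.

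The sequences shared by the clusters of both replicates show what was recovered from these mRNAs. They are written 5′ to 3′ in the sense of the mRNA, with T for U, from hg38, and the capitals mark CATC and CACC in the regions that hold at least 1 of them:
PSMB5: accCATCctcCATCctatttatag
CCT4: attCATCcaacCATCatttctg
PSMA5: cttcactCATCATCctcaaacaag
HSPA1A, HSPA1B and HSPA1L: caactcCACCATCccCACCaag
HSP90AB1: agtcCATCtattaCATCactg
PSMB2, 3′ UTR: ttcttcCATCcctataatccag
PSMD7: gcacaacctCATCaacaacaag
PSMA4: ccacacaCATCccctttttttg
PSMA2: tacagcCATCttaaccctaaag
PSMA6: cccactcctcctacCACCg

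The other regions held neither tetramer and have no capitals. They show that a region with high coverage, such as that of HSPA8, need not carry these letters:
HSPA8: acttctatacctccattacccg
CCT3: caacagctctattactaccaaag
PSMB2, coding sequence: aacatttccttccccaaacag
HSP90AA1: atctccctctaaacatatcccg
DNAJB1: aaccaaaatcactttccccaag

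A cluster was present in 16 of the 130 genes in Rep.A (12.3%, 95% Wilson interval 7.72 to 19.1). The count was 20 in Rep.B (15.4%, 10.2 to 22.6). Among all protein-coding genes, 3.9% held a cluster in Rep.A and 5.03% in Rep.B. The clusters of both replicates overlapped in 16 of the 130 genes (12.3%), and the share over all protein-coding genes was 3.32%. Of the 20 genes with a cluster in either replicate, 16 had a reproducible region (80%, 58.4 to 91.9), and the same share over all protein-coding genes was 59.6%. The intervals of the first 3 shares lay above the share of all genes, while the interval of the last reached below it. With only clusters whose sequence occurs once in hg38, which leaves out HSPA1A, HSPA1B and HSPA1L, 8 of the 130 genes had a reproducible region (6.15%, 3.15 to 11.7), and 2.37% of all protein-coding genes did. With only clusters at or above the median log odds score of their table, the count was 6 (4.62%, 2.13 to 9.70), and 1.49% over all protein-coding genes. RNA levels are not in the deposited tables, so these shares were not set against expression. Only called clusters are listed, so for the other 110 genes a lack of binding, of RNA and of reads cannot be told apart.

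The genes with reproducible regions came from both groups. Of the chaperones and J-domain proteins, 9 of 80 had a reproducible region, and of the proteasome genes, 7 of 43. Of 14 HSP70 genes, 4 had one (HSPA1A, HSPA1B, HSPA1L and HSPA8), as did 2 of 3 HSP90 genes (HSP90AA1 and HSP90AB1) and 2 of 9 TRiC genes (CCT3 and CCT4). The regions of HSPA1A, HSPA1B and HSPA1L have 1 identical sequence and are counted here as separate genes, although their reads cannot be told apart. Of the 44 J-domain genes, 1 had one, DNAJB1 (2.27%, 0.402 to 11.8), which is near the 3.32% of all protein-coding genes. Within the proteasome, the regions lay mostly in genes of the barrel: 4 of 8 PSMA genes (PSMA2, PSMA4, PSMA5 and PSMA6) and 2 of 11 PSMB genes (PSMB2 and PSMB5) had one. Of the 20 genes with PSMC or PSMD symbols, 1 had one, PSMD7 (5%, 0.888 to 23.6), again near the share of all genes. None of the 6 PSMC ATPases, the 4 PSME activators, the 7 small heat shock proteins or HSPH1 held a cluster in either table. The remaining 7 genes share only the letters of the rule or are readthrough genes (HSPBP1, HSPBAP1, PSMC3IP, PSME3IP1, HSPE1-MOB4, DNAJC25-GNG10 and HSPB2-C11orf52), and they held no cluster. These family counts are small and no difference between families was tested.

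**Figure D1:**
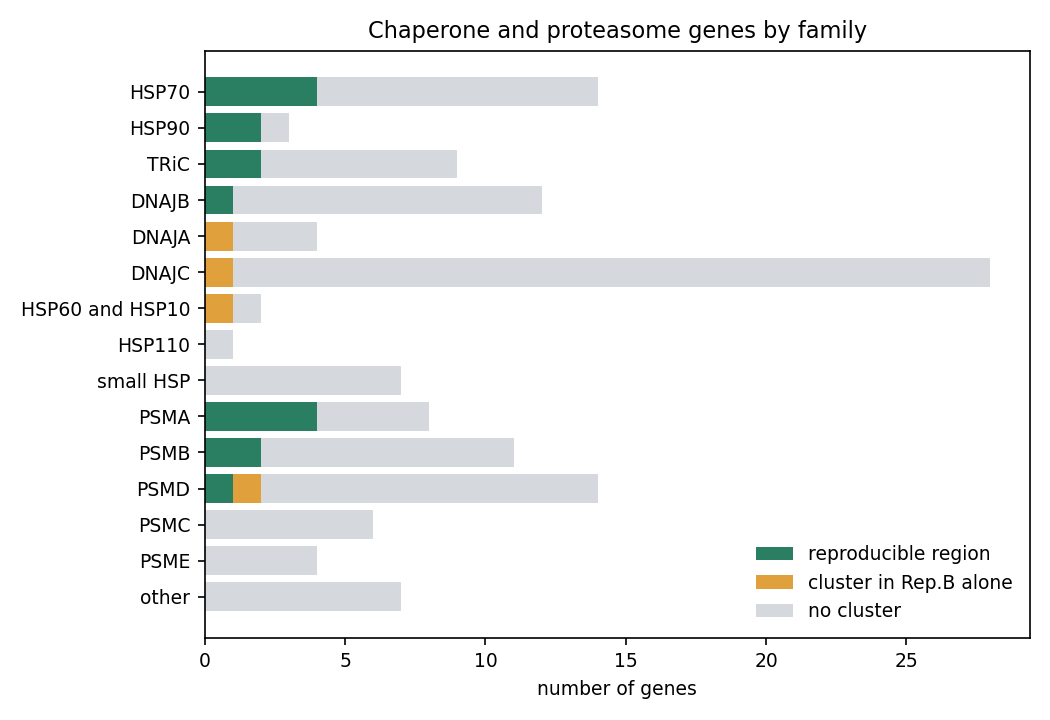
Number of chaperone and proteasome genes in each family (horizontal axis), split into genes with a region found in both replicates, genes with a cluster in Rep.B alone and genes with no cluster. The PSMA and HSP70 families had 4 genes each with a reproducible region, whereas 27 of the 28 DNAJC genes had no cluster. Of the HSP70 genes, HSPA1A, HSPA1B and HSPA1L share 1 identical sequence.

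The coverage differed strongly among the 17 reproducible regions. In Rep.A it ran from 0.0196 to 34.4 reads per base with a median of 11.95, and in Rep.B from 9 to 104 with a median of 29.9. All 17 regions had the higher value in Rep.B. The medians over the 627 reproducible regions in exons of nuclear protein-coding genes were 14 in Rep.A and 37 in Rep.B. The medians of the chaperone and proteasome regions were thus lower in both replicates, but above the lower quartiles over all (9 and 25.4). By the geometric mean of both replicates CCT3 ranked 267 of 627. All regions of the set with a lower geometric mean than CCT3 ranked between 349 (HSPA1L) and 626 (PSMA2). The log2 difference of Rep.B over Rep.A had a median of 1.34 (SD 2.33, n = 17), beside 1.38 (SD 0.73, n = 1116) over all overlapping pairs. The SD fell to 0.56 (n = 16) without PSMA2, whose cluster in Rep.A is described further on. Since coverage was not scaled, the median over all pairs was taken as the depth difference between the replicates, and the values of 1 gene in Rep.A and Rep.B are to be read against it. In 14 of the 17 regions both replicates gave the same first and last base, and the same count over all regions was not made.

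**Figure D2:**
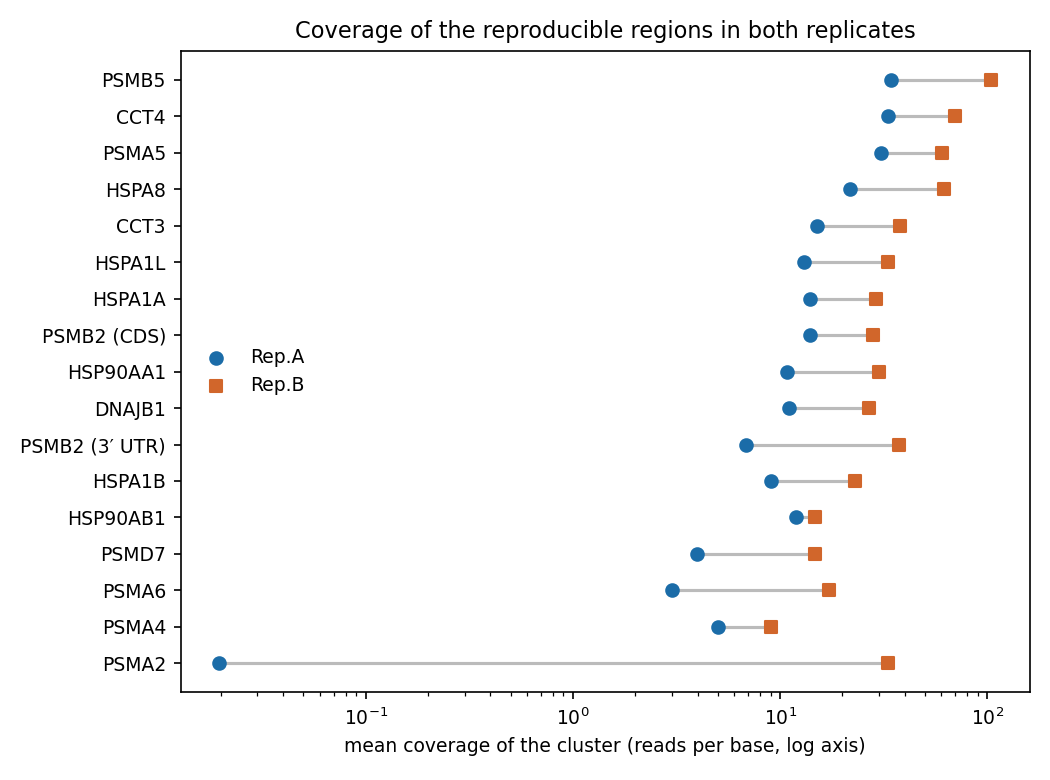
Mean coverage of the cluster in Rep.A (circles) and Rep.B (squares) for each of the 17 reproducible regions, on a logarithmic axis in reads per base, ordered by the geometric mean of both. Every region is higher in Rep.B, and PSMA2 stands apart through its value of 0.0196 in Rep.A. Without PSMA2, the ratio of Rep.B to Rep.A runs from 1.23 in HSP90AB1 to 5.71 in PSMA6.

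The region with the highest coverage lay in PSMB5, which encodes the beta subunit with chymotrypsin-like activity. Its coverage was 34.4 reads per base in Rep.A and 104 in Rep.B. The region (chr14:23026001-23026024, minus strand) is in the 3′ UTR in exon 3 of 3, 77 bases past the stop codon. By the geometric mean of both replicates it ranked 24 among the 627 exonic regions. The sequence holds CATC at 2 positions, and its tables list 2 T positions with transitions in Rep.A and 1 in Rep.B, out of 8 T bases.

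PSMB2, which encodes a structural beta subunit, was the only gene of the set with 2 reproducible regions, both in exon 6 of 6. The region at the end of the coding sequence (chr1:35603276-35603296, minus strand) had its midpoint 19 bases before the last base of the stop codon. Coverage there was 14 in Rep.A and 28 in Rep.B. The region 782 bases past the stop codon (chr1:35602475-35602496) had 6.86 and 37.4. The order of the regions therefore differed between the replicates: the coding region was the higher one in Rep.A and the 3′ UTR region in Rep.B. The log2 differences of Rep.B over Rep.A were 1 and 2.44. Transitions were found at 2 of 5 T bases of the coding region in both replicates, and at 1 of 8 in the 3′ UTR region.

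The alpha ring contributed 4 genes. PSMA5 had the third-highest geometric mean of the set, with 30.7 in Rep.A and 60.6 in Rep.B, in the coding sequence (chr1:109409963-109409986, minus strand, exon 8 of 9, 82.9% of the way from start to stop codon). Its sequence holds 2 overlapping CATC tetramers and shows transitions at 2 of 6 T bases in both replicates. The stretch of exon around it is given to show that the fragment ends at the first G after the tetramers, with the cluster in capitals (chr1:109409933-109410014):
PSMA5 exon 8: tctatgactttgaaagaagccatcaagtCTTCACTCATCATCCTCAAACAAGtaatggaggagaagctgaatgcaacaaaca

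PSMA4 had low coverage, 5 in Rep.A and 9 in Rep.B, in the 3′ UTR 214 bases past the stop codon (chr15:78549148-78549169, plus strand). PSMA6 had 3 in Rep.A and 17.1 in Rep.B, in clusters that shared 19 bases (chr14:35317408-35317426, plus strand). This stretch is not part of the PSMA6 transcript with the longest coding sequence, and on the canonical transcript it lies in the 3′ UTR, in exon 7 of 7. A further PSMA6 cluster in the same 3′ UTR was listed for Rep.B alone, and with 51.0 reads per base it was higher than the reproducible region of that gene (chr14:35317358-35317378, 62 bases past the stop codon). It is printed because it is the highest cluster of the set found in Rep.B alone:
PSMA6, Rep.B: taacaacaaaccaaCATCatg

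PSMA2 is the case in which the tables differ most. In Rep.B the cluster covered 22 bases of the coding sequence (chr7:42917778-42917799, minus strand, exon 7 of 8) with 33.2 reads per base. In Rep.A the cluster that starts at the same base was 18702 bases wide, with a mean of 0.0196. That width runs past the start of PSMA2 and 1 Rep.B cluster lies within it. The mean times the width is 367 read bases, and if all of them had lain in the 22 bases of the Rep.B cluster, the coverage in Rep.A would have been 16.7 and Rep.B would have been 1.99 times as high. The value of 0.0196 is thus a mean over a long interval and not comparable with the others, and the log2 difference of 10.73 for this gene follows from it.

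For the regulatory particle, PSMD7, a lid subunit, had 3.95 in Rep.A and 14.7 in Rep.B (chr16:74305574-74305595, plus strand, coding sequence, exon 7 of 7). Its cluster in Rep.A carried a relative log odds score below 0 (-0.02), and only 2 clusters of the set did. PSMD12, another lid subunit, had a cluster in Rep.B alone, with a coverage of 24 (chr17:67340957-67340978, minus strand, coding sequence, exon 11 of 11). The 2 genes thus gave low or unmatched signals beside PSMB5 and PSMA5.

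**Figure D3:**
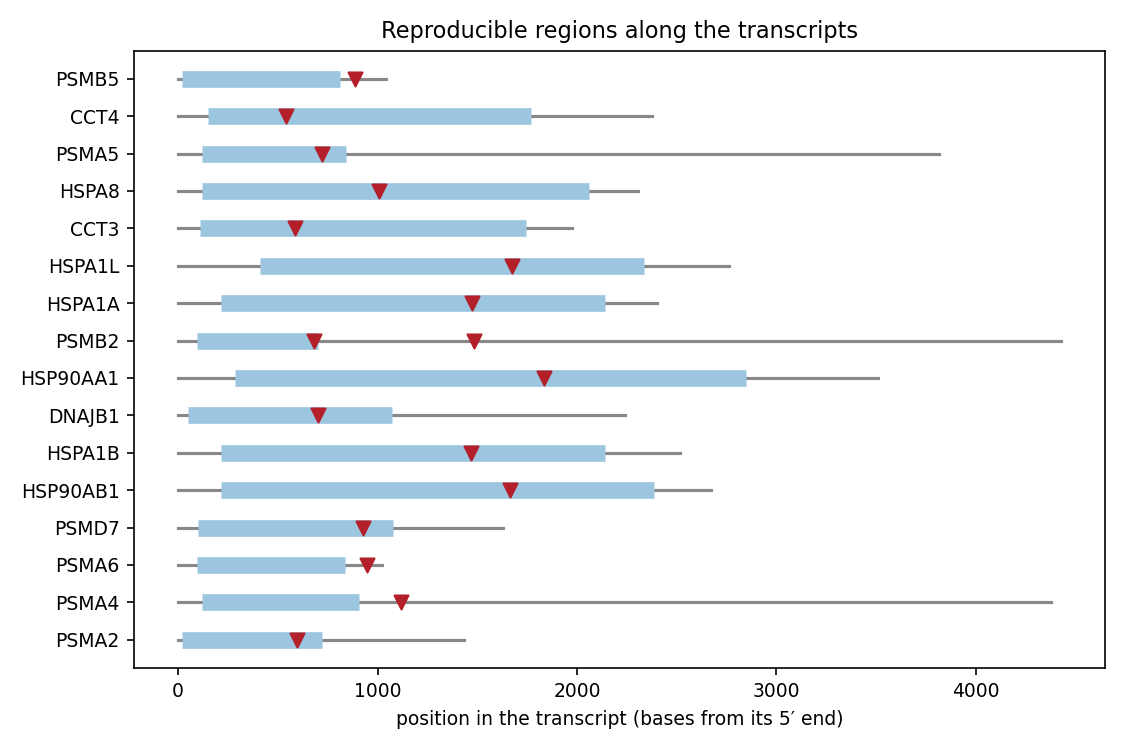
Position of the reproducible regions (triangles) along 1 transcript of each gene, in bases from its 5′ end, with the coding sequence as a thick bar and the UTRs as lines. The regions in the coding sequence lie between 24.2% and 96.9% of its length. No region lies in a 5′ UTR, where 10 of 598 regions (1.67%) lay over all nuclear protein-coding genes.

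Among the chaperones, the TRiC subunit gene CCT4 had the highest coverage, 33 in Rep.A and 70 in Rep.B (chr2:61878988-61879009, minus strand, exon 5 of 14). Only PSMB5 was higher in the set, and CCT4 ranked 45 of 627. CCT3, another TRiC subunit gene, had 15 and 37.9 (chr1:156320958-156320980, minus strand, exon 7 of 14). Both regions lie in the first part of the coding sequence, at 24.2% in CCT4 and 29.2% in CCT3. The CCT4 exon is given because its cluster begins 2 bases after the exon edge, after a G (chr2:61878958-61879011):
CCT4 exon 5: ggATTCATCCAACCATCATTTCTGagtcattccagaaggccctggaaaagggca

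HSPA8, which encodes the constitutive HSP70 of the cytosol, had 21.7 in Rep.A and 61.7 in Rep.B, ranking 102 of 627 (chr11:123059697-123059718, minus strand, coding sequence, exon 5 of 9, at 45.6%). With 30 more bases on each side there is still no CATC and no CACC (chr11:123059667-123059748):
HSPA8 exon 5: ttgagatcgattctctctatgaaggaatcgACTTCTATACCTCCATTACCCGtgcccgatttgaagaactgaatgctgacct

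The heat-inducible HSP70 genes HSPA1A and HSPA1B and the related HSPA1L lie next to each other on chromosome 6 and gave the same 22 bases at 65.3%, 65.3% and 65.7% of their coding sequences. HSPA1A (chr6:31817004-31817025, plus strand) had 14 in Rep.A and 29 in Rep.B. HSPA1B (chr6:31829198-31829219, plus strand) had 9 and 23. HSPA1L (chr6:31810698-31810719, minus strand) had 13 and 33. The 3 sequences are identical and occur nowhere else in hg38, so a read from any of them matches all, and the aligner setting of the authors placed such a read at 1 of the positions. The coverage of 1 gene therefore cannot be told apart from that of the other two, and the sum over them was 36 in Rep.A and 85 in Rep.B, 2.36 times as high.

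No cluster was listed at the nearest match of the HSPA1A stretch in any of the other HSP70 genes. The 4 genes with the fewest mismatches are shown, with capitals marking the bases that differ:
HSPA1A: caactccaccatccccaccaag
HSPA2: GaacAccacGatccccaccaag
HSPA6: GaacGccacTatccccaccaag
HSPA8: TaaTAccaccatTccTaccaag
HSPA9: GaaTAccacTatTccAaccaag

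The mismatches number 3 in HSPA2 and HSPA6, 5 in HSPA8 and 6 in HSPA9, which encodes the mitochondrial HSP70, and 8 to 10 in the remaining genes of the family. The converse held for the HSPA8 stretch, with 3 mismatches in HSPA1L and HSPA2 4 in HSPA1A, HSPA1B and HSPA6, and 8 or 9 in the rest, again without a cluster at the relative's position:
HSPA8: acttctatacctccattacccg
HSPA1L: acttctatacAtccatCaccAg
HSPA2: acttctatacGtccatCacGcg
HSPA1A and HSPA1B: acttctaCacGtccatCaccAg

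The HSP70 genes with clusters thus gave different stretches of the coding sequence, 1 in HSPA8 and 1 shared by the HSPA1 genes.

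The HSP90 genes gave 2 reproducible regions and 2 clusters found in 1 replicate each. HSP90AA1, the inducible cytosolic HSP90, had 10.8 in Rep.A and 29.9 in Rep.B (chr14:102083932-102083953, minus strand, exon 8 of 12). HSP90AB1, the constitutive form, had 11.95 and 14.7 (chr6:44251864-44251884, plus strand, exon 9 of 12). Its log2 difference of 0.30 was the lowest of the set. Its cluster in Rep.B carried a relative log odds score below 0 (-0.025), as did the PSMD7 cluster in Rep.A. The further clusters lay at matching stretches of both genes: in HSP90AB1 a cluster of 30.7 in Rep.A alone (chr6:44248713-44248737, exon 2 of 12), and in HSP90AA1 a cluster of 3 in Rep.B alone (chr14:102086262-102086282, exon 3 of 12). The HSP90AA1 sequence occurs 3 times in hg38 and summed over its copies had 6 in Rep.A and 25 in Rep.B, so it was recovered in both replicates. The sequence of the HSP90AB1 cluster in exon 2 occurs 2 times, and neither copy held a cluster in Rep.B. The relative log odds score of that cluster in Rep.A was 0.035. The stretch of the HSP90AA1 cluster is shown with its counterpart in HSP90AB1, capitals marking the 3 of 21 bases that differ:
HSP90AA1 exon 3: atcatcaatactttctactcg
HSP90AB1 exon 2: atcatcaatacCttctaTtcC

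HSP90B1, the HSP90 of the endoplasmic reticulum, held no cluster, and its nearest stretch has 7 mismatches to that of HSP90AA1.

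DNAJB1, a J-domain protein that stimulates the ATPase of HSP70, had 11 in Rep.A and 27 in Rep.B with transitions at 2 of 4 T bases in both replicates (chr19:14516592-14516613, minus strand, coding sequence, exon 2 of 3). Its nearest relative by sequence, DNAJB5, has 4 mismatches over these 22 bases and no cluster. DNAJA1, which also acts with HSP70, had a cluster of 18 in Rep.B alone, in the 3′ UTR 567 bases past the stop codon (chr9:33039459-33039481). This sequence is shown because it holds several G bases, unlike most of the set:
DNAJA1, Rep.B: taggaggggtttatcataatatg

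DNAJC27, which joins a Rab-like GTPase domain to a J domain, held the only intronic cluster of the set, with 8 in Rep.B (chr2:24969101-24969123). The same 23 bases occur 6 times in hg38, a ribosomal protein pseudogene, RPS13P5, lies at this place in the intron, and RPS13 itself is among the copies. HSPD1, the chaperonin of mitochondria, had a cluster of 3 in Rep.B alone in exon 12 of 13 (chr2:197487996-197488017), and its sequence occurs 8 times. For both genes the reads of the cluster thus also match other loci.

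Sequences that occur more than once made up a large part of the weaker regions. Of the 17 reproducible regions, 10 had a sequence found once in hg38 (58.8%, 36.0 to 78.4), beside 475 of 608 regions over all protein-coding genes (78.1%, 74.7 to 81.2). The 5 regions with the highest coverage were all among those 10. Summing the coverage over all clusters on identical copies changed the ratio of Rep.B to Rep.A, whose median over all pairs was 2.60. In HSP90AB1 exon 9 it went from 1.23 to 2.23, in PSMA4 from 1.80 to 2.25 and in PSMD7 from 3.72 to 2.08. For the HSPA1 genes the sum gave 2.36, beside 2.07 in HSPA1A, 2.56 in HSPA1B and 2.54 in HSPA1L alone. In PSMA6 it stayed at 5.71, as the other copy, on chromosome Y, held no cluster. The sums for HSPD1 were 16 in Rep.A and 26 in Rep.B, so its sequence was recovered in both replicates while the cluster in the gene itself was listed for Rep.B alone.

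**Figure D4:**
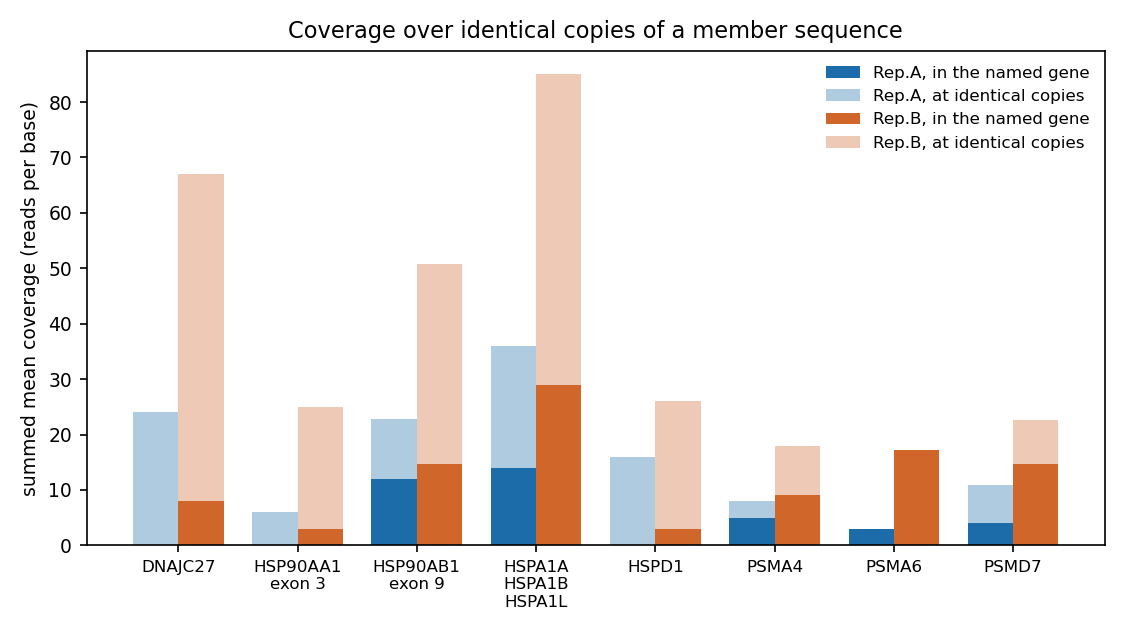
Mean coverage in the named gene (dark) and at identical copies elsewhere in hg38 (light), stacked, for Rep.A (blue) and Rep.B (orange), in reads per base. For DNAJC27 and HSPD1 the gene itself held 0 in Rep.A, while the copies brought the sums to 24.1 and 16.

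Outside the 130 genes, 8 Rep.A clusters and 10 Rep.B clusters had a sequence found whole in a chaperone or proteasome transcript, and 5 and 6 of them lay in pseudogenes named after a member. The highest values were 10.8 in Rep.A and 22.5 in Rep.B in a copy of the HSP90AB1 sequence on the X chromosome (ENSG00000235071). HSP90AA3P had 6 and 13, and HSP90AB2P had 13.6 in Rep.B alone. On the opposite strand, 1 Rep.A cluster and 2 Rep.B clusters lay within the span of PSMA8 or DNAJC14. They were not counted for these genes.

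By transcript part, 13 of the 16 regions that could be placed on the transcript with the longest coding sequence lay in the coding sequence (81.3%, 57.0 to 93.4) and 3 in the 3′ UTR (18.8%, 6.59 to 43.0). Over all nuclear protein-coding genes the shares were 60.7% (56.7 to 64.5) and 37.6% (33.8 to 41.6). The intervals overlap, so the higher share in the coding sequence was not separable from that of all genes at these counts. The 13 include the identical HSPA1A, HSPA1B and HSPA1L regions, counted separately. With only sequences found once in hg38, 7 of 9 regions lay in the coding sequence (77.8%). The median position was 65.3% of the coding sequence, and 10 of the 13 lay past its midpoint. The identical HSPA1 regions make up 3 of these 10, and the share over all genes was not computed. In the set, the 3′ UTR regions on those transcripts were all of the proteasome (PSMB5, PSMB2 and PSMA4), and all regions of the chaperones lay in coding sequence.

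CATC was present in 11 of the 17 regions (64.7%, 41.3 to 82.7), beside 281 of the 627 exonic regions of all nuclear protein-coding genes (44.8%, 41.0 to 48.7). CACC was present in 4 of 17 (23.5%, 9.56 to 47.3), beside 268 of 627 (42.7%, 38.9 to 46.6). Both were searched on the mRNA strand, and in the HSPA1 sequence they overlap by 1 base. Either tetramer was present in 70.6% of the regions and in 70.3% over all. The intervals overlapped for CATC and for CACC. With only sequences found once in hg38, 4 of 9 regions held CATC (44.4%). The 4 regions with CACC were the identical HSPA1A, HSPA1B and HSPA1L and the low region of PSMA6, so that of 15 distinct sequences only 2 held CACC (13.3%) and 9 held CATC (60%). Every CATC region of the proteasome and of CCT4 lacked CACC.

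**Figure D5:**
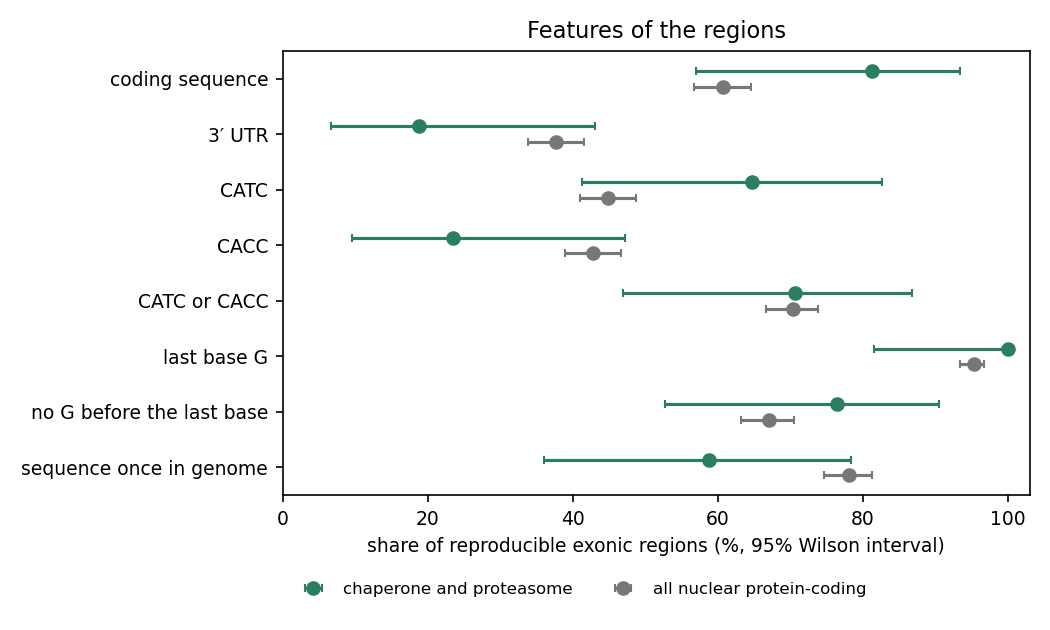
Share of the reproducible exonic regions (horizontal axis, in percent, with 95% Wilson intervals) with each feature, for the chaperone and proteasome regions and for all nuclear protein-coding genes. The intervals of both sets overlap for every feature, including CATC at 64.7% and 44.8% and the coding sequence at 81.3% and 60.7%.

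All 17 regions ended in G (100%, 81.6 to 100), as did 95.4% of all exonic regions, and 13 of 17 had no other G (76.5%, 52.7 to 90.4), beside 67.0% over all. RNase T1 cuts after G, and the part of the enzyme in where the regions end was not tested. Apart from the wide PSMA2 cluster, the 40 clusters were 19 to 25 bases long, with a median of 22. Of the 41 clusters, 32 had transitions at 1 T position and 9 at 2. More than 1 position in both replicates was found in PSMA5, DNAJB1 and the coding region of PSMB2, 3 of 17 (17.6%, 6.19 to 41.0), beside 15.5% over all.

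Other genes of the same pathways were counted from lists. Of 53 protein-coding co-chaperones and other folding factors, 7 had a reproducible region (13.2%, 6.55 to 24.8), beside 3.32% of all protein-coding genes. The highest were CANX, a lectin chaperone of the endoplasmic reticulum, with 28.6 (Rep.A) and 79.5 (Rep.B), and CDC37, which brings kinases to HSP90, with 23.3 and 75.9. FKBP4, an immunophilin that binds HSP90, had 7 and 42, and a further cluster of 69.8 in Rep.B alone. BAG3, a nucleotide exchange factor of HSP70, had 11.7 and 24.3. PDIA3, a disulfide isomerase, had 16.6 and 35.2, BTF3, a subunit of the nascent polypeptide complex, had 4 and 21, and PPIA, a prolyl isomerase, had 3 and 5.67, each with a sequence that has copies elsewhere. STIP1, which links HSP70 to HSP90, had 13.3 in Rep.A and 44 in Rep.B at places that did not overlap. BAG4 and CALR had a cluster in Rep.A alone, and GRPEL1 and NACA in Rep.B alone. Of 30 genes of proteasome assembly, shuttling and partners, none had a reproducible region (0%, 0 to 11.4, an interval that holds the 3.32% of all genes), and RAD23B, a shuttle for ubiquitinated proteins, had a cluster of 58.0 in Rep.B alone. In Rep.B the values of CANX and CDC37 were above that of every chaperone of the set. In Rep.A both were below the 33 of CCT4.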

How the data were processed

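YB-1 PAR-CLIP of wild-type HEK293T cells was analysed in 2 replicates of 1 condition. According to the submitters' processing notes, reads were trimmed with cutadapt 2.10 and aligned to hg38 with Bowtie 1.0.0. The authors called clusters with wavClusteR in each replicate separately and deposited 1 table per replicate. The coverage signal, as deposited, is the average number of reads over each base of a cluster, without correction for library depth. The deposited transitions and T bases are counts, the deposited crosslinking efficiency is a fraction (transitions over T bases), and the deposited log odds are a score. A read with several matches was placed at 1 of them by the authors' aligner setting. The study's supplement states mapped reads per library, which were not used here. The depth difference was taken from the median over overlapping clusters.

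Cluster sequences all matched hg38 at their positions (1382 of Rep.A, 2011 of Rep.B) and were turned to the gene's strand. Genes, exons and coding sequences came from GENCODE release 44, with 1 transcript per gene, that of the longest coding sequence. Clusters of both replicates that shared at least 1 base were joined into a region, and sequence and placement use the bases common to both. Positions in a transcript refer to the midpoint of the region or cluster, and distances to the stop codon are counted to its last base. Exact copies of sequences with 18 to 100 bases were sought across hg38, either strand. Shares have 95% Wilson intervals, which cover counting error only, since the tables do not separate molecules from PCR duplicates. There was 1 condition, so no test was run. The counting steps were tested on simulated data.

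The members, the pathway lists and the rules were chosen with earlier results of these data known. Every gene with a cluster was named, and positions and sequences were to be given for the 12 genes of highest coverage, for genes with more than 1 region and for the largest intronic region. Alternatives changed the overlap, coverage, score, width, copies, gene part, transcript, window, member rule and replicate. Sequences were read with samtools 1.23.1 and pysam 0.24.0. Tables were handled in Python 3.11.15 with pandas 2.3.3 and numpy 2.4.6, intervals came from scipy 1.17.1, and plots from matplotlib 3.10.9.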

Additional observations from a re-analysis of the deposited data

How the results depend on the processing

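Of 37 recomputed values, 31 stayed within the spread or within 1.5 times the reported count. The log2 difference of Rep.B over Rep.A kept its sign, while counts and shares could not change theirs. The 16 genes with a reproducible region became 6 when both clusters had to reach the median relative log odds score of their table, and 8 when their sequence had to occur once in hg38. The 17 regions became 11 with a coverage of at least 10, 6 with the score and 9 with the sequence once in hg38. PSMA2 is missing from these 9, although its shared 22 bases occur once, because its Rep.A cluster is wider than the 100 bases that were searched. The 8 genes were CCT3, CCT4, DNAJB1, HSP90AA1, HSPA8, PSMA5, PSMB2 and PSMB5. CACC fell from 23.5% to 0% of the regions (0 of 9) when sequences had to occur once, since the 4 regions that hold it have copies. Under the same rule CATC fell from 64.7% to 44.4% (4 of 9), and with a coverage of at least 10 to 54.5% (6 of 11). With 1 replicate alone, the genes numbered 16 to 20, the clusters 18 to 23, the share in the coding sequence was 80% to 81.3%, CATC 59.1% to 64.7% and CACC 18.2% to 23.5%. No paired analysis was possible because there is 1 condition. The counts are small, the tables list only called clusters, and the RNA level is not given in them, so a low or missing value in Rep.A was not separable from its lower coverage.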
